A study of Mus musculus with 23 samples.

Results

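The genes described here are 9 genes of myelin and of the oligodendrocytes that make it. Mbp, Mog, Mag, Mobp, Cnp, Cldn11, Ermn, Opalin and Myrf were followed across RNA-seq libraries of mouse glioma. They were chosen by name, from what is known of mature oligodendrocytes, with earlier results of these data known. They make up 9 of the 35576 genes in the files. The 9 genes did not behave as 1 block. In bulk tumors of the GL261 and CT2A lines none of the 9 differed past the threshold in edgeR, against 23.4% of all genes tested, while DESeq2 called Cnp and Myrf lower in CT2A. In tumor cells sorted from the same lines, where 50.8% of all genes passed, Mog, Cnp, Cldn11, Opalin and Myrf were lower in CT2A, with log2 differences from -3.37 to -8.15, while the differences of Mbp, Mag and Mobp lay between -0.28 and -0.50 and did not pass the test.

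Oligodendrocytes wrap axons of the central nervous system in layers of their own membrane, the myelin sheath. Mbp and Mobp are small basic proteins that hold the cytoplasmic faces of compact myelin together, and their messenger RNAs are carried out along the cell processes to the sheath. Mog lies on the outermost layer, Mag on the innermost layer against the axon, Cnp in the non-compacted cytoplasmic channels, and Cldn11 forms tight junctions between the layers. Ermn is an actin-binding protein of late oligodendrocytes, Opalin is a membrane glycoprotein of the oligodendrocyte lineage, and Myrf is a membrane-bound transcription factor that cuts itself free and switches on myelin genes together with Sox10.

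The 23 libraries came from tumors that grew in the right striatum of female albino C57BL/6 mice aged 7 to 10 weeks at implantation, and no treatment is named for these samples. Both lines carried luciferase. Bulk tumors were whole pieces of tissue grown from 100000 GL261-luc2 cells (4 libraries) or from 25000 CT2A-luc cells (4 libraries) and taken after 22 to 24 days. For sorted tumor cells, sublines of GL261-luc2 (4 libraries) and CT2A-luc (3 libraries) that also carried a surface tag were implanted at 200000 cells and pulled out of the dissociated tumor with magnetic beads against that tag. These lines had been grown as adherent cultures. A further 3 GL261 and 5 CT2A libraries were sorted in the same way from tumors of cells grown beforehand as neurospheres, floating spheres of cells. The titles of the 5 CT2A neurosphere libraries name GL261, but 2 other fields of the same labels, the cell line and the description, give CT2A, which was followed. Bulk and sorted libraries also differed in subline, number of cells implanted, read length (150 against 37 bases) and sequencer. The paper also names a different library kit for each, a directional one for sorted cells. It gives no harvest day for the sorted tumors. The differences between bulk and sorted libraries cannot be told apart from the sort itself. Bead selection enriches tagged cells and does not remove every other cell. Libraries are named here by group and by the number in their labels, each from a tumor of a separate mouse, so that p-values measure the spread between these tumors.

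Reads assigned to genes ranged from 34597135 to 42590802 per library in GL261 bulk tumors and from 7384590 to 15243502 in the other groups. Hoxc10, a homeobox gene known from earlier results of these data to differ between the lines, was used to check the line labels and was between 0 and 0.0269 TPM (transcript abundance scaled for transcript length and library size) in GL261 bulk and between 31.3 and 47.5 in CT2A bulk. It was between 2.53 and 7.82 TPM in the 7 sorted GL261 libraries, adherent and neurosphere, against 44.4 to 75.5 in the 8 sorted CT2A libraries, and the 5 neurosphere libraries with conflicting titles were among the latter. Hoxc10 was thus higher in sorted GL261 libraries than in GL261 bulk, and whether RNA of CT2A was carried over into them was not tested. Summed over 10 neuronal marker genes, bulk libraries held 107 to 2173 TPM and sorted libraries 7.49 to 75.5 TPM. The 11 macrophage and microglia markers summed to 947 to 1335 TPM in GL261 bulk, 884 to 1449 in CT2A bulk, 160.0 to 1124 in GL261 sorted, 718 to 1375 in CT2A sorted, 4534 to 6686 in GL261 neurosphere and 533 to 2038 in CT2A neurosphere, so transcripts of these non-tumor cells were measured in every sorted group.

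Positions are those of GRCm38. Mog is at chr17:37010743-37023398 on the minus strand, Cnp at chr11:100574904-100591729 on the plus strand, Opalin at chr19:41061710-41077113 and Myrf at chr19:10208272-10240748, both on the minus strand, and Mobp at chr9:120149707-120181484 on the plus strand. Cldn11 (chr3:31149920-31164324, plus strand), Mag (chr7:30899176-30914873, minus strand) and Ermn (chr2:58045113-58052864, minus strand) were placed likewise. Exons of Cnp overlap those of Dnajc7 on the opposite strand by 154 bases, exons of Ermn overlap Galnt5 on the opposite strand by 237 bases, and exons of Mobp overlap Gm38642 on the same strand by 79 bases. Whether counting used strand is not given in the sources used here, so reads in those stretches cannot be told apart from reads of the neighbour.

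Promoter windows, from 250 bases before to 50 bases after the annotated start, were taken from RefSeq (GRCm38.p6) for 7 of the 9 genes, and those of Mbp and Myrf are not shown here. The windows of 4 genes are printed as examples from both sides of the comparison of sorted cells. Cldn11, lower in sorted CT2A cells, and Mag, whose difference did not pass, lay on opposite sides too and are not printed. Those of Mog (chr17:37023349-37023648, minus strand), Cnp (chr11:100574689-100574988, plus strand) and Opalin (chr19:41077064-41077363, minus strand) belong to genes that were lower in sorted CT2A cells, and that of Mobp (chr9:120149492-120149791, plus strand) to a gene whose difference there did not pass the test. Capitals mark matches, on either strand, to CTGGCAC or CTGGTAC (the Myrf motif), ACAAAG or ACAATG (a Sox motif) and CAGCTG or CATCTG (an E-box, the motif of basic helix-loop-helix factors).
Mog: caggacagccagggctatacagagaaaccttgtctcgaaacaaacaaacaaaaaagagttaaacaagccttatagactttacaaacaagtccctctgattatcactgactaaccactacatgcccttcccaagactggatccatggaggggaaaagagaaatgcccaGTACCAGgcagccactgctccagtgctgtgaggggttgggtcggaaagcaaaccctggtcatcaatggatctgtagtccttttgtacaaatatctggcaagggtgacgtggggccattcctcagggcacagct
Cnp: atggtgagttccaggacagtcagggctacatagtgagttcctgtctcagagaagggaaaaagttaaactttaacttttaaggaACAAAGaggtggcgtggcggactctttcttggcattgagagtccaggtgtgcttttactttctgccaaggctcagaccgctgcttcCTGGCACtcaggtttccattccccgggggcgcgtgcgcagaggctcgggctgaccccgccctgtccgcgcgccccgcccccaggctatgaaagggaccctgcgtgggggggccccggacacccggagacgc
Opalin: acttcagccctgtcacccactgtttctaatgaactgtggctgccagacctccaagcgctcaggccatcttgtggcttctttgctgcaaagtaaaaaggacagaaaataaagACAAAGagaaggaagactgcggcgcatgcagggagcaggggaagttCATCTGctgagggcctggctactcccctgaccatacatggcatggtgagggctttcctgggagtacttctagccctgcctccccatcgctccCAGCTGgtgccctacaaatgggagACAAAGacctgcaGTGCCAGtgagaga
Mobp: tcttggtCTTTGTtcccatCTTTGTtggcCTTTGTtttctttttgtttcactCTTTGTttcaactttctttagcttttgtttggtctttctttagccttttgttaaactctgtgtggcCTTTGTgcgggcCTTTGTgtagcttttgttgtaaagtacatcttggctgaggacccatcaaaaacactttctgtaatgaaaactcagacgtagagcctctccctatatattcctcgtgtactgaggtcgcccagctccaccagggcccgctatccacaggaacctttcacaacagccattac
The windows of Mog, Cnp and Opalin each held 1 Myrf motif, as did 2 of the 3 windows listed for Mag, which overlap and share the same match. None was found in those of Mobp, Cldn11 or Ermn. Cldn11 was thus lower in sorted CT2A cells without a match, and Mag had a match but did not pass. Over 32851 windows of the same length from 27025 genes, 7.1% held a Myrf motif, 28.6% a Sox motif and 30.6% an E-box of the 2 forms searched. Mobp had 6 Sox motifs in its window, Opalin 2, Cnp, Mag and Ermn 1 each, and Mog and Cldn11 none. Opalin alone had matches to the 2 E-box forms searched, 2 in its window, and other forms of the E-box were not searched. Of these matches none overlapped another. They are letters in a window and were not tested for binding.

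Levels of the 9 genes are given first, in TPM, the scale on which genes of different length can be set side by side. Mbp was the most abundant member in every bulk library and in every sorted CT2A library of adherent lines. In GL261 bulk it was at 227, 1559.9, 870.2 and 659 TPM in libraries 405, 412, 414 and 417, and in CT2A bulk at 378, 531, 1052 and 849.8 TPM in libraries 39, 40, 47 and 48. In sorted cells it was at 83.9, 231, 248 and 139.7 TPM in GL261 libraries 81 to 84 and at 111, 122 and 176 TPM in CT2A libraries 69 to 71. The lines overlapped in bulk and again after sorting. Neurosphere-derived GL261 cells had 94.6, 132 and 139.7 TPM in libraries 89 to 91, within the range of the sorted adherent cells. Neurosphere-derived CT2A cells had 4.82, 16.4, 13.4, 149 and 12.8 TPM in libraries 57 to 61, so library 60 stood apart from the other 4.

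Mobp, the second basic protein, followed Mbp closely. Its TPM was 61.8, 639, 294 and 269 in the GL261 bulk libraries and 128, 181, 404 and 309 in the CT2A bulk libraries. After sorting it was 30.9, 82.9, 99.6 and 78.3 TPM in GL261 and 41.7, 49.8 and 62.6 TPM in CT2A. The sorted CT2A values all lay inside the range of the sorted GL261 values. GL261 neurosphere libraries held 28.9, 44.2 and 42.0 TPM and CT2A neurosphere libraries 1.39, 7.28, 3.92, 46.4 and 4.29 TPM, the fourth of these again library 60. Per 100 TPM of Mbp, Mobp had a median of 37.3 in GL261 bulk, 35.2 in CT2A bulk, 38.5 in GL261 sorted, 37.4 in CT2A sorted, 30.6 in GL261 neurosphere and 31.1 in CT2A neurosphere. The whole range of that ratio over 23 libraries was 27.3 to 56.0 per 100, against a range of 1.39 to 639 TPM in Mobp itself.

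Mog, the protein of the outermost layer, showed another order of groups. It was at 6.44, 58.6, 22.4 and 22.5 TPM in GL261 bulk and at 11.004, 14.9, 36.8 and 28.8 TPM in CT2A bulk. In sorted GL261 cells it was at 27.5, 40.6, 35.4 and 40.8 TPM, within the range of the bulk tumors, and in GL261 neurosphere cells at 24.9, 35.3 and 29.8 TPM. Every sorted GL261 library thus held Mog at a bulk-tumor level. In sorted CT2A cells Mog was near the limit of detection, at 0.121, 0.414 and 0.111 TPM, which stands for 1 read in each of the 3 libraries. CT2A neurosphere libraries had no Mog read except library 60, with 7 reads and 0.666 TPM. Per 100 TPM of Mobp, Mog had a median of 8.77 in GL261 bulk and 8.85 in CT2A bulk, but of 50.6 in GL261 sorted and 0.290 in CT2A sorted.

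**Figure D1:**
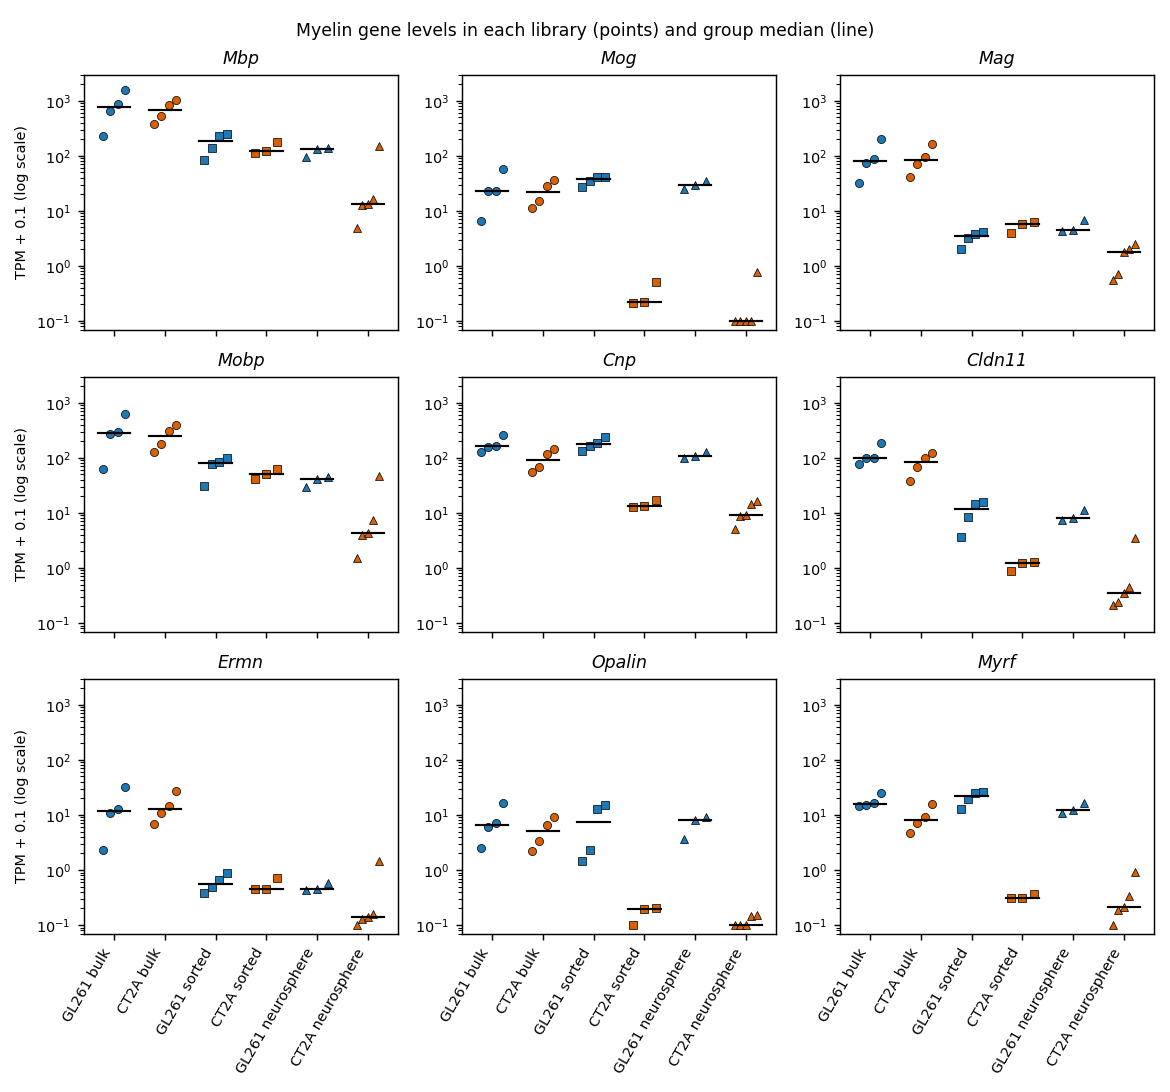
TPM of each of the 9 genes in every library, 1 panel per gene, on a log axis after a small constant was added to show zeros. Each point is 1 library, blue for GL261 and orange for CT2A, circles for bulk tumors, squares for sorted adherent-line cells and triangles for neurosphere-derived cells, and the line is the group median. Mog, Cnp, Opalin and Myrf of sorted GL261 cells sit at or near bulk-tumor levels (Mog 27.5 to 40.8 TPM), while in sorted CT2A cells Mog is at 0.111 to 0.414 TPM. Library 60 lies above the other 4 CT2A neurosphere points for Mbp, at 149 TPM.

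Cnp, the phosphodiesterase of non-compact myelin, was at 127, 262, 159 and 167 TPM in GL261 bulk and at 56.4, 68.8, 144 and 117 TPM in CT2A bulk. In sorted GL261 cells it was at 134, 244, 187 and 167 TPM and in sorted CT2A cells at 12.6, 13.2 and 17.1 TPM. Cnp in sorted GL261 cells was within the bulk range, and the sorted lines did not overlap. The neurosphere libraries held 101, 107 and 125 TPM in GL261 and 8.63, 14.6, 5.06, 16.2 and 9.18 TPM in CT2A. Here library 60 was the highest of its group by a small step only. In sorted GL261 libraries the Cnp level, on the TPM scale, came near or above that of Mbp, with a median of 113 TPM per 100 TPM of Mbp, whereas in sorted CT2A cells the median was 10.8.

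Myrf, the transcription factor, was the member that varied least among GL261 bulk tumors, at 14.6, 25.0, 16.4 and 14.9 TPM, and was at 4.63, 6.91, 15.6 and 9.25 TPM in CT2A bulk. In sorted GL261 cells it was at 26.1, 24.5, 19.3 and 12.7 TPM. Sorted CT2A cells had 0.274, 0.214 and 0.214 TPM, from 5, 5 and 4 reads. Thus Myrf in the sorted lines did not overlap. Neurosphere-derived cells had 10.9, 12.1 and 16.3 TPM in GL261, and 0, 0.113, 0.0867, 0.813 and 0.237 TPM in CT2A. Opalin, the membrane glycoprotein, was at 2.46, 16.5, 5.90 and 7.19 TPM in GL261 bulk and 2.08, 3.27, 9.08 and 6.58 TPM in CT2A bulk. Sorted GL261 cells split, with 12.6 and 15.2 TPM in libraries 82 and 83 but 2.25 and 1.35 TPM in libraries 81 and 84. Opalin in sorted CT2A cells was at 0, 0.0963 and 0.101 TPM, and these did not overlap the GL261 values. The neurosphere libraries held 9.18, 8.11 and 3.60 TPM in GL261 and no more than 0.0552 TPM in CT2A.

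Mag, the adhesion molecule facing the axon, fell in both lines after sorting. It was at 31.5, 201.3, 88.0 and 72.8 TPM in GL261 bulk and at 40.4, 70.8, 167 and 94.1 TPM in CT2A bulk. Sorted cells had 1.96, 3.17, 3.73 and 3.98 TPM in GL261 and 3.79, 5.65 and 6.20 TPM in CT2A. The CT2A value of 3.79 TPM lay inside the GL261 range and the others above it. Neurosphere-derived cells had 4.39, 6.68 and 4.13 TPM in GL261 and 0.458, 1.93, 1.70, 2.38 and 0.617 TPM in CT2A. Ermn, the late cytoskeletal protein, was at 2.18, 32.7, 12.6 and 10.7 TPM in GL261 bulk and at 6.65, 10.9, 27.3 and 14.2 TPM in CT2A bulk. All 7 sorted libraries of adherent lines lay between 0.279 and 0.790 TPM, with the lines overlapping. The GL261 neurosphere libraries were at 0.338 to 0.487 TPM, and the CT2A neurosphere libraries at 0 to 0.0598 TPM except library 60, at 1.34 TPM.

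Cldn11, the tight-junction protein, lay between these patterns. It was at 77.9, 189.9, 98.6 and 99.4 TPM in GL261 bulk and at 37.9, 68.8, 120.3 and 100.1 TPM in CT2A bulk. Sorted GL261 cells had 8.44, 14.5, 15.5 and 3.48 TPM and sorted CT2A cells 1.1997, 1.16 and 0.796 TPM. Both sorted groups lay below every bulk library, and the CT2A values lay below every GL261 value. The neurosphere libraries held 7.87, 7.404 and 11.04 TPM in GL261 and 0.245, 0.141, 0.113, 3.44 and 0.351 TPM in CT2A, where library 60 stood apart.

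In bulk tumors the 9 genes were compared between the lines to ask whether tumors of the 2 lines held different amounts of myelin transcript. None of the 9 passed the test (edgeR quasi-likelihood with Benjamini-Hochberg adjustment over 16434 genes, threshold 0.05), against 23.4% of all genes tested (11.4% higher and 11.9% lower). At an unadjusted p under 0.05 the count was 2, Cnp and Myrf, and DESeq2 called the same 2 genes lower in CT2A. The log2 difference, CT2A minus GL261, was -0.93 (SE 0.32, adjusted p = 0.0742) for Cnp and -0.93 (SE 0.36, adjusted p = 0.105) for Myrf. Both had the least spread among GL261 bulk tumors of the 9, with a ratio of highest to lowest TPM of 2.07 for Cnp and 1.71 for Myrf. The other differences ran from -0.62 (Opalin, SE 0.58) to 0.03 (Mag, SE 0.51), with adjusted p from 0.333 to 0.989. For Mbp it was -0.22 (SE 0.49). The TPM of the lines overlapped for all 9 genes, and the median of the 9 differences was -0.30, against -0.05 over all genes tested. Leaving out CT2A bulk library 47, the highest of its group in each of the 9 genes, the differences of Cnp (-1.18, adjusted p = 0.0403) and Myrf (-1.33, adjusted p = 0.0197) passed.

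The spread within a line was large beside these differences. Summed over the 9 genes, GL261 bulk tumors ran from 550.2 TPM in library 405 to 2985 in library 412, and CT2A bulk tumors from 665 to 1976. In GL261 bulk the ratio of highest to lowest TPM was 15.0 for Ermn, 10.3 for Mobp, 9.11 for Mog, 6.89 for Mbp, 6.73 for Opalin, 6.39 for Mag and 2.44 for Cldn11. Library 405 was the lowest of the 4 and library 412 the highest for each of the 9 genes. In library 405 the neuronal markers summed to 107 TPM and in library 412 to 2173 TPM, also the ends of that group. In CT2A bulk the ends were not the same libraries. Library 39, the lowest in the 9-gene sum, held 1186 TPM of neuronal markers, and the lowest neuronal sum was 332 TPM in library 40. Library 47, the highest in the 9-gene sum, held 1473 TPM, and the highest neuronal sum was 1999.9 TPM in library 48. The part of admixed brain tissue in the spread of the 9 genes was not tested. In a bulk sample fewer oligodendrocytes and less RNA per oligodendrocyte cannot be told apart.

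Other oligodendrocyte genes of the bulk tumors were counted too, where 11.9% of all genes tested were lower in CT2A and 11.4% higher. Of 9 transcription factors of the lineage, 5 were lower in CT2A and none higher, among them Sox10, the partner of Myrf, at -4.30, and Olig1 and Olig2, which specify the lineage, at -2.69 and -3.00. Sox10 was at 147 to 326 TPM in GL261 bulk and at 9.005 to 20.6 TPM in CT2A bulk. Of 11 further genes of myelin structure and junctions, 3 were lower and none higher, including the connexin gene Gjc3 at -5.05. Of the 6 enzymes of myelin lipids, 1 was lower. Of 8 progenitor genes 4 were lower and 3 higher, and of 4 genes of newly formed oligodendrocytes 2 were lower and 1 higher. The counts of these short lists were not tested against the share over all genes. None of the 10 neuronal markers passed in either direction, and of 8 astrocyte markers 1 was higher.

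**Figure D2:**
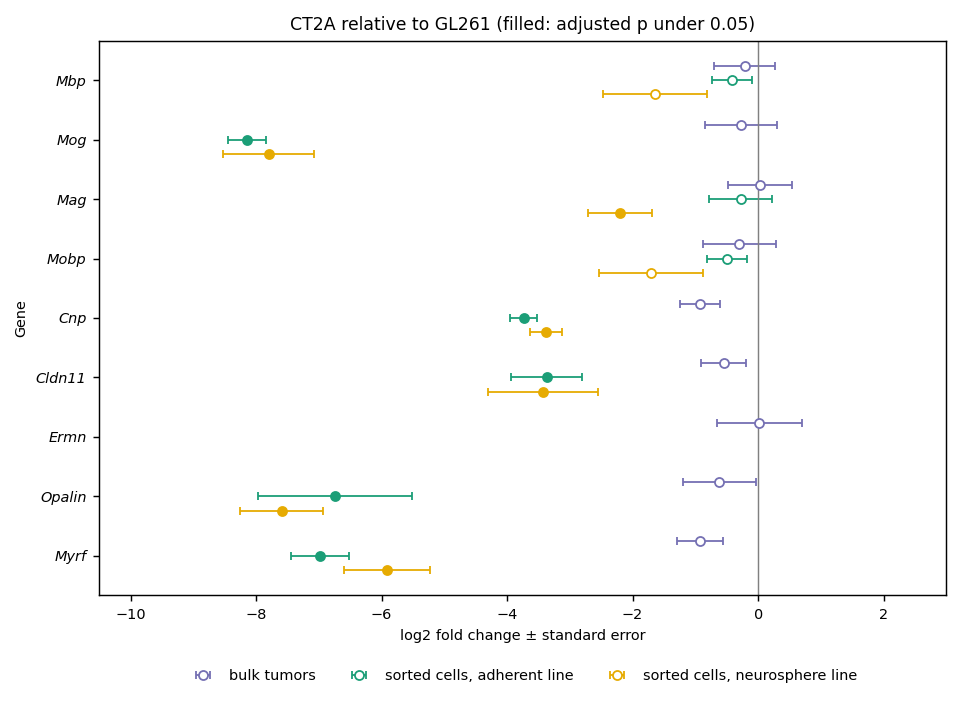
The log2 difference between the lines, CT2A minus GL261, for each of the 9 genes in bulk tumors, sorted adherent-line cells and neurosphere-derived cells, with bars of 1 standard error from edgeR. Filled points passed an adjusted p of 0.05, and Ermn was below the count minimum outside bulk tumors. Bulk points run from -0.93 (Cnp and Myrf) to 0.03 (Mag), and none is filled. Sorted points of Mog (-8.15), Myrf (-6.98) and Opalin (-6.74) lie far below these, and those of Mbp (-0.42), Mag (-0.28) and Mobp (-0.50) do not.

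In sorted cells of the adherent lines the comparison asks how far the tumor-cell fraction itself differs. The count minimum, a mean of more than 10 normalized counts, was passed by 8 of the 9 genes and not by Ermn, and 5 of the 8 were lower in CT2A, where 50.8% of 13789 genes were called (24% higher and 26.8% lower). Mog differed most, at -8.15 (SE 0.30, adjusted p = 7.22e-07). Counted directly, 1348 reads in 4 GL261 libraries stood against 3 reads in 3 CT2A libraries, a depth-corrected ratio of 308 with a 95% exact binomial interval of 105 to 1494 that covers counting error only. Myrf was lower by a log2 difference of -6.98 (SE 0.47, adjusted p = 1.03e-05), and Cnp by -3.74 (SE 0.22, adjusted p = 5.46e-06). Cldn11 was lower at -3.37 (SE 0.57, adjusted p = 0.00138). For Opalin the difference was -6.74 (SE 1.22, adjusted p = 0.00203), and 337 reads against 2 gave a ratio of 115 (95% interval 31.7 to 957). In these 5 genes the libraries of the lines did not overlap, and the share of all genes without overlap was not counted. Mbp (-0.42, SE 0.32, adjusted p = 0.307), Mag (-0.28, SE 0.51, adjusted p = 0.677) and Mobp (-0.50, SE 0.32, adjusted p = 0.22) overlapped and did not pass. The direction for Mag depended on the scale, since its TPM was higher in 2 of the 3 sorted CT2A libraries than in any sorted GL261 library, while its CPM, which the test rests on, was 0.866 to 3.61 in GL261 and 1.73 to 2.71 in CT2A, from 7.79 to 36.0 estimated reads per library. The median of the 8 differences was -3.55, against -0.01 over all genes tested. Leaving out GL261 library 81, the lowest of its group in Mobp, the Mobp difference was -0.73 (adjusted p = 0.00279).

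Lineage transcription factors were also lower in sorted CT2A cells, all 7 of those tested, with Sox10 at -10.43, Olig2 at -8.70 and Olig1 at -8.03. Sox10 was at 489 to 608 TPM in sorted GL261 cells and at 0.279 to 1.07 TPM in sorted CT2A cells. Of 8 further structure and junction genes tested, 6 were lower, led by Gjc3 (-9.15), Pllp (-4.26) and Mal (-3.33), the last 2 being proteolipids of myelin membrane. Of the 6 lipid enzymes 4 were lower, among them Fa2h, which hydroxylates the fatty acids of myelin galactolipids (-5.43), and 2 were higher, Aspa (4.005) and Cers2 (0.74). Of 7 progenitor genes tested, 4 were lower, including Gpr17 (-10.95), and Pdgfra, the growth factor receptor of progenitors, was higher (1.23). Of 5 Schwann cell genes tested, 3 were lower and 1 was higher. The neuronal markers summed to 7.49 to 52.9 TPM in sorted GL261 and 37.7 to 75.5 in sorted CT2A, with 1 of 7 lower and 1 higher, and none of the 11 macrophage markers passed. Of the endothelial markers 3 of 6 were lower in sorted CT2A cells, with a median of -1.39, and of the astrocyte markers 3 of 8 were lower and 1 higher. The part of all these markers in the differences of the myelin genes was not tested.

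Neurosphere-derived cells repeated the comparison in tumors of other mice. There, 6 of 8 genes tested were lower in CT2A, where 59.6% of 13733 genes were called (30% higher and 29.6% lower). The differences were -7.80 for Mog (SE 0.72, adjusted p = 1.32e-05), -7.59 for Opalin (SE 0.66, adjusted p = 7.64e-06) and -5.92 for Myrf (SE 0.69, adjusted p = 7.07e-05). Mog was counted with 758 reads in 3 GL261 libraries against 7 in 5 CT2A libraries, all 7 in library 60, a ratio of 240.3 (95% interval 116.1 to 599.8), and 227 Opalin reads stood against 2, a ratio of 252 (95% interval 68.9 to 2093). Cldn11 (-3.43, SE 0.88, adjusted p = 0.00744), Cnp (-3.38, SE 0.26, adjusted p = 3.12e-06) and Mag (-2.20, SE 0.51, adjusted p = 0.00376) were lower as well. Mbp (-1.65, SE 0.83, adjusted p = 0.114) and Mobp (-1.71, SE 0.83, adjusted p = 0.105) did not pass. With all 6 groups in 1 edgeR fit, and no library left out, both passed (adjusted p = 0.0423 for Mbp and 0.0467 for Mobp). Leaving out library 60 they passed, at -3.10 (adjusted p = 4.7e-05) for Mbp and -3.11 (adjusted p = 0.000189) for Mobp. Library 60 was the highest of the 5 CT2A neurosphere libraries for all 9 genes, and it was also highest for neuronal markers, at 39.1 TPM in sum against 12.1 to 20.05 in the other 4. Its Camk2a, a kinase of neurons, was at 11.6 TPM against 0.643 to 2.71, and its Gfap, the astrocyte filament, at 19.7 TPM against 1.38 to 5.12. The sum of all 8 astrocyte markers did not set library 60 apart, at 188.6 TPM against 52.0 to 186.5 in the other 4. The part of these markers in the levels of library 60 was not tested. Markers of other cells were lower in CT2A neurosphere cells as well, all 11 of macrophages (median -2.38), 7 of 8 of astrocytes (median -2.39), 5 of 6 of endothelial cells (median -2.50) and 2 of 6 of neurons, with 1 neuronal marker higher, and their part in the differences of the 6 myelin genes was not tested.

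The cultures of each line were then compared, neurosphere-derived minus adherent. In GL261 none of 8 genes passed, against 8.53% of 13675 genes (7.58% higher and 0.951% lower). At an unadjusted p under 0.05 there were 3 (Mag, Mobp and Cnp), and DESeq2 called Mag higher and Cnp lower. In edgeR the difference of Mag was 1.45 (SE 0.44, adjusted p = 0.0897) and that of Cnp -0.63 (SE 0.18, adjusted p = 0.0672), and for both the libraries did not overlap. Leaving out GL261 sorted library 81, Mag (1.16, adjusted p = 0.0233), Mobp (-1.06, adjusted p = 0.00365) and Cnp (-0.72, adjusted p = 0.0152) passed. That library had the lowest sums of neuronal markers (7.49 TPM) and of macrophage markers (160.0 TPM) of its group. Of the 11 macrophage markers, 9 were higher in GL261 neurosphere cells, with a median of 2.98 on the log2 scale. In CT2A, 5 members were tested and none passed, against 0.167% of 13142 genes (0.0533% higher and 0.114% lower). Mobp (-2.09, SE 0.83, adjusted p = 0.352) was the only member at an unadjusted p under 0.05. DESeq2 called none, but it gave no adjusted p for Mbp and so could not have called it. Leaving out library 60, Mbp (-3.18, adjusted p = 0.00259) and Mobp (-3.50, adjusted p = 0.00368) were lower in neurosphere-derived CT2A cells. The test of whether the line difference itself differed between the cultures called none of 8 members, against 6.67% of 13824 genes (0.969% higher and 5.7% lower). Only Mag was at an unadjusted p under 0.05, and DESeq2 called none. Leaving out library 60, Mbp (-2.72, adjusted p = 0.00686), Mag (-2.56, adjusted p = 0.0243) and Mobp (-2.65, adjusted p = 0.0124) passed.

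Sorted cells were set against bulk tumors of the same line to see which members were lower after selection. In GL261, 5 of the 9 genes were lower in sorted cells, where 34.5% of 16265 genes were called (14.4% higher and 20.1% lower). They were Mag (-4.96, SE 0.63, adjusted p = 0.00134), Ermn (-4.65, SE 0.77, adjusted p = 0.00304), Cldn11 (-3.23, SE 0.46, adjusted p = 0.00211), Mbp (-1.91, SE 0.51, adjusted p = 0.0189) and Mobp (-1.79, SE 0.58, adjusted p = 0.0413). Libraries did not overlap for Mag, Ermn and Cldn11 and overlapped for Mbp and Mobp, where only bulk library 405 reached into the sorted range. Mog (0.65, SE 0.51, adjusted p = 0.352), Cnp (0.21, SE 0.25, adjusted p = 0.529), Opalin (0.27, SE 0.75, adjusted p = 0.812) and Myrf (0.50, SE 0.32, adjusted p = 0.248) did not pass, all with estimates above 0. Without bulk library 412, the highest for Mog, the Mog difference was 1.31 (adjusted p = 0.0329). The Mbp call was lost without sorted library 81 (adjusted p = 0.0513) or 84 (adjusted p = 0.0577), and the Mobp call in 7 of the 8 fits that left out 1 library (adjusted p from 0.062 to 0.0981).

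In CT2A all 9 genes were lower in sorted cells, where 49.9% of 14701 genes were called (23% higher and 26.9% lower). The differences were -7.23 for Mog (SE 0.68, adjusted p = 0.000363), -6.08 for Cldn11 (SE 0.53, adjusted p = 0.000301), -5.86 for Opalin (SE 0.86, adjusted p = 0.00128) and -5.59 for Myrf (SE 0.57, adjusted p = 0.000536). For Mog, 801 reads in 4 bulk libraries stood against 3 in 3 sorted libraries, a ratio of 161 (95% interval 54.9 to 783), and for Opalin 216 against 2, a ratio of 65.2 (95% interval 17.8 to 541). Mag (-5.25, SE 0.53, adjusted p = 0.000538) and Ermn (-4.83, SE 0.60, adjusted p = 0.000861) had differences near those in GL261. Cnp (-2.63, SE 0.37, adjusted p = 0.00119), Mbp (-2.11, SE 0.38, adjusted p = 0.00297) and Mobp (-1.99, SE 0.42, adjusted p = 0.00589) fell least, and with all 6 groups in 1 fit Mobp did not pass (adjusted p = 0.0537). For none of the 9 did bulk and sorted CT2A libraries overlap, and the share of all genes without overlap was not counted. All 10 neuronal markers were lower in sorted cells of both lines, with a median of -5.50 in GL261 and -5.11 in CT2A. These medians lay beside the values of Mag and Ermn and below those of Mbp and Mobp in both lines. Markers of other cells fell less than neuronal ones. Astrocyte markers were lower for 5 of 8 genes in GL261 (median -2.58) and 7 of 8 in CT2A (median -2.98). Endothelial markers were lower for 0 of 6 genes in GL261 (median -0.11) and 5 of 6 in CT2A (median -1.33). Macrophage markers were lower for 2 of 11 genes in GL261 (median -0.47) and 0 of 11 in CT2A (median -0.20).

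**Figure D3:**
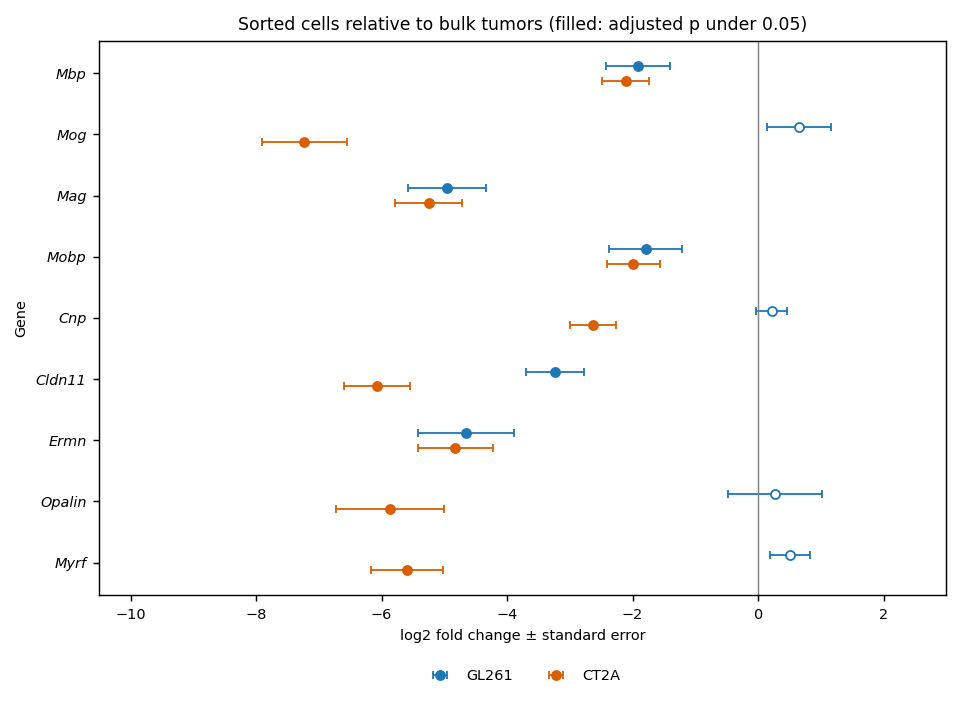
The log2 difference between sorted cells and bulk tumors for each of the 9 genes, blue for GL261 and orange for CT2A, with bars of 1 standard error from edgeR and filled points where the adjusted p was under 0.05. The lines lie together for Mag (-4.96 and -5.25), Ermn (-4.65 and -4.83), Mbp (-1.91 and -2.11) and Mobp (-1.79 and -1.99), and apart for Mog (0.65 and -7.23), Myrf (0.50 and -5.59), Opalin, Cldn11 and Cnp.

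Whether the line difference itself changed from bulk tumors to sorted cells was tested in 1 fit of the 4 groups. In it 5 of the 9 genes passed, all with a lower CT2A value in sorted cells, against 13.5% of 15845 genes called (7.67% higher and 5.8% lower). The change in the difference was -7.79 for Mog (SE 1.03, adjusted p = 0.000278), -6.07 for Opalin (SE 1.43, adjusted p = 0.0125) and -5.95 for Myrf (SE 0.66, adjusted p = 8.45e-05). For Cnp it was -2.68 (SE 0.43, adjusted p = 0.00124), and for Cldn11 also -2.68 (SE 0.71, adjusted p = 0.0221). The Cldn11 call was lost without CT2A sorted library 70 (adjusted p = 0.0546) or 71 (adjusted p = 0.0704). For Mbp (-0.03, SE 0.66), Mag (-0.13, SE 0.80), Mobp (-0.03, SE 0.76) and Ermn (-0.02, SE 0.96) the change was small beside its error, and a p that misses the threshold does not show that it was absent. The median over all genes in this fit was 0.12, and DESeq2 size factors moved it by -0.123, so the changes are read beside that shift. Of the lineage transcription factors 6 of 9 passed in the same direction as Mog, and of the progenitor genes 6 of 8. Fewer did so among the further genes of myelin structure and junctions, 3 of 11. Of the 6 lipid enzymes 1 passed in that direction and 2 in the other. Of the genes of newly formed oligodendrocytes 2 of 4 passed in the direction of Mog, and of the Schwann cell genes 1 of 5. None of the neuronal, astrocyte, macrophage or endothelial markers passed.

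The composition of the 9-gene sum shows the same split on the TPM scale, and carries no test. Mbp made up 41.2 to 55.5% of the sum in GL261 bulk, 53.3 to 56.9% in CT2A bulk and 63.3 to 66.8% in CT2A sorted cells, but 26.6 to 39.7% in GL261 sorted cells. Cnp made up 8.78 to 23.03% of the sum in GL261 bulk and 7.19 to 8.47% in CT2A bulk. In sorted cells its share was 30.0 to 42.5% in GL261 and 6.49 to 7.38% in CT2A. Sorted CT2A cells therefore held a mixture dominated by Mbp and Mobp, with a summed level of 171 to 264 TPM. Sorted GL261 cells summed to 315 to 654 TPM. Myrf, a transcription factor, was 2.83 to 8.27% of the sum in sorted GL261 cells, against 0.837 to 2.66% in GL261 bulk. Per 100 TPM of Mobp, Ermn was at 3.52 to 6.76 TPM in the 8 bulk libraries and at 0.491 to 0.983 TPM in the 7 sorted libraries of adherent lines.

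**Figure D4:**
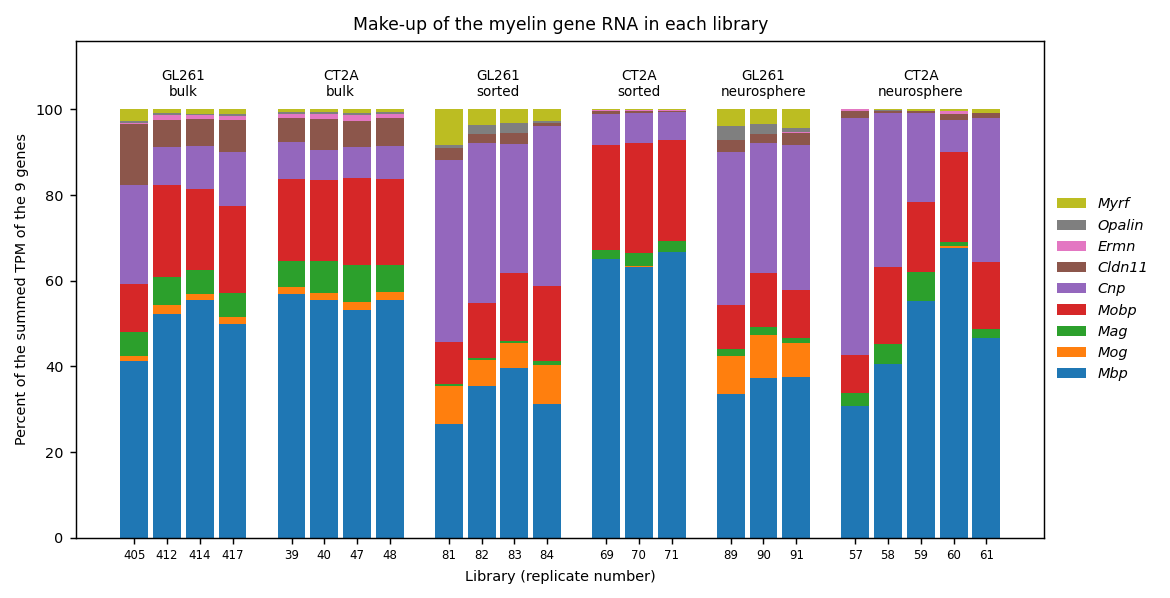
Share of each of the 9 genes in their summed TPM, in percent, for every library, with libraries in the order of the 6 groups. Cnp takes 30.0 to 42.5% in sorted GL261 cells and 6.49 to 7.38% in sorted CT2A cells, where Mbp takes 63.3 to 66.8%.

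Mbp and Mobp have transcripts of more than 1 kind. The Mbp gene lies on the plus strand of chromosome 18, from 82475146 to 82585637 (GRCm38). It has 4 annotated transcripts that begin at the upstream, or golli, start, which is also used outside the oligodendrocyte lineage, and 12 that begin downstream, where the transcripts of the classic myelin proteins start. Upstream transcripts were 1.38 to 3.36% of Mbp TPM in GL261 bulk, 1.23 to 2.11% in CT2A bulk, 1.14 to 1.54% in GL261 sorted and 0.609 to 1.26% in CT2A sorted. In all 15 of these libraries Mbp was thus nearly all of the downstream kind. The share was 3.20 to 8.27% in GL261 neurosphere cells, and in CT2A neurosphere libraries 57 to 61 it was 26.8, 3.37, 22.97, 1.24 and 6.81%. Library 60 had the highest downstream level of that group, 148 TPM, against 3.53 TPM in the lowest. Upstream transcripts themselves were at 0.555 to 3.08 TPM in CT2A neurosphere cells and 4.47 to 7.82 TPM in GL261 neurosphere cells. In Mobp 1 transcript, Mobp-204, which the annotation types as subject to nonsense-mediated decay, took most of the estimated TPM. Its share was 74.2 to 82.4% in bulk libraries, 89.2 to 96.2% in sorted GL261 and 97.3 to 98.1% in sorted CT2A cells. Reads of 37 bases carry less information on transcripts than reads of 150 bases, and that difference cannot be told apart from the sort.

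Across the 23 libraries the pairwise correlation of the 9 genes, here Pearson's r of log2 CPM (counts scaled to library size), is given as a description, since the libraries share groups and depths. Mbp and Mobp had r = 0.99, Cnp and Myrf 0.98, Mog and Myrf 0.97, Mog and Cnp 0.97, and Mag and Ermn 0.97. The lowest values were those of Mog and Ermn (0.50) and of Ermn and Myrf (0.50). With each group's mean taken out, the range was 0.38 (Opalin and Myrf) to 0.97 (Mbp and Mobp). Among 15419 genes, Fa2h (r = 0.98) and Mal (0.98) were among those whose profile was most like the average of the 9.

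**Figure D5:**
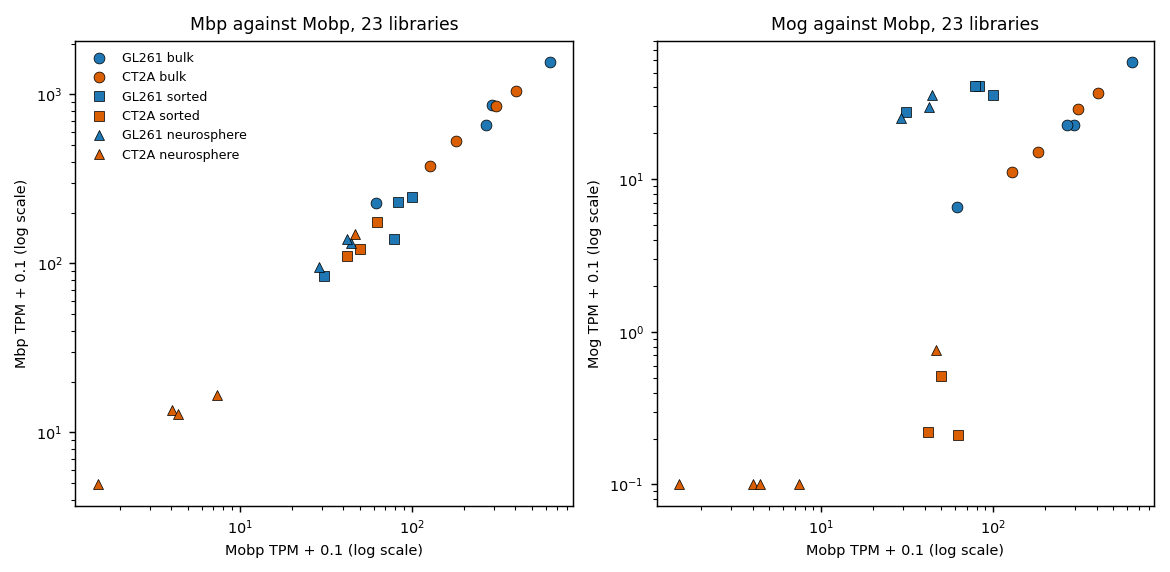
TPM of Mbp (left) and of Mog (right) on the vertical axis against TPM of Mobp on the horizontal axis in the 23 libraries, on log axes after a small constant was added, with colours for line and symbols for kind of sample. Mbp and Mobp lie on 1 line over all groups, with 27.3 to 56.0 TPM of Mobp per 100 TPM of Mbp. Mog runs 35.5 to 89.0 TPM per 100 TPM of Mobp in sorted GL261 cells and 0.177 to 0.832 in sorted CT2A cells, on either side of the bulk tumors (7.63 to 10.4).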

How the data were processed

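The authors quantified every library with Salmon on GRCm38 (mm10) transcripts and deposited estimated counts and TPM per transcript. For 15 libraries (bulk and sorted adherent) they also deposited RSEM 1.3.3 expected counts per gene after STAR 2.7.7a alignment, used here as an alternative. From these files, the estimated counts of 116546 transcripts were summed to 35576 genes and rounded. A further 180 transcripts had no gene, with 0.0413 to 0.152% of reads. Gene counts were tested with edgeR 4.0.16 (R 4.3.3, TMM, quasi-likelihood, robust), on genes with a mean normalized count above 10, using only the groups compared, with Benjamini-Hochberg adjustment over all genes tested and a threshold of 0.05. Shrinkage was not used. TPM values were summed per gene as deposited. The test was tried on simulated data.

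Alternatives were DESeq2 1.42.0, its size factors in edgeR, no count minimum, another minimum, all 6 groups in 1 fit, RSEM counts and leaving out each library. The members and the other gene lists were chosen with earlier results of these data known. Named genes outside the 9 are up to 3 called genes per direction with the smallest p in each list. Of 34 pairs of libraries within a group, none agreed within sampling noise (lowest chi-square per degree of freedom 4.85). Intervals cover counting error only. Strand use in counting is not given in the sources used here. Positions are from GENCODE annotation of GRCm38. Plots used matplotlib 3.10.9.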

Additional observations from a re-analysis of the deposited data

Results flagged for a closer look

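Each of the 9 genes and their sum was examined, in every group of 4 or 5 libraries, for a library far from the rest. Of these 40 checks 7 found one, where chance gives about 1 in 20 for a single check. The 9 genes vary together and the sum is made of them, so the checks are not independent. The count of 7 therefore cannot be set against that rate. Of the 7, 6 were CT2A neurosphere library 60. It held Mbp at 149 TPM with the next library at 16.4, Mobp at 46.4 TPM with the next at 7.28, and Cldn11 at 3.44 TPM with the next at 0.351. Ermn was at 1.34 TPM in it with the next at 0.0598, Mog was at 0.666 TPM with no read in the other 4, and the 9 genes summed to 221 TPM with the next at 40.6. The remaining one was Myrf in GL261 bulk library 412, at 25.0 TPM with the next at 16.4.

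The difference between the lines changed from bulk tumors to sorted cells, by the interaction test, for Mog (-7.79), Opalin (-6.07), Myrf (-5.95), Cnp (-2.68) and Cldn11 (-2.68), all on the log2 scale.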

How the results depend on the processing

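Of 30 differences of the 9 genes that passed the threshold, 26 passed under every alternative run, 4 lost the call under at least 1, and none changed direction. DESeq2 gave no adjusted p for 3 member differences, those of Mbp and Mobp between neurosphere-derived lines and of Mbp between CT2A cultures. With all 6 groups in 1 fit the differences of Mbp (adjusted p = 0.0423) and Mobp (adjusted p = 0.0467) between neurosphere-derived lines passed. In bulk tumors the members lower in CT2A numbered 2 with DESeq2 (Cnp -0.95, adjusted p = 0.0219, and Myrf -0.95, adjusted p = 0.045) and 1 with all 6 groups in 1 fit. Differences near 0 changed sign: bulk Mag was -0.0147 with DESeq2, -0.0149 with its size factors and -0.0774 with no minimum, and bulk Ermn was -0.0252, -0.0255 and -0.0912. With no minimum the interaction of line with sorting was 0.0166 for Mbp, 0.0204 for Mobp and 0.0283 for Ermn, and the GL261 bulk against sorted call of Mobp was lost (adjusted p = 0.0505). Calls over all genes moved in the GL261 culture comparison (1873 with DESeq2, 1167 in edgeR, with 1 member higher and 1 lower), in the CT2A culture comparison (302 with DESeq2, 35 with its size factors, 87 with no minimum, 40 with the other minimum and 58 with all 6 groups, against 22) and in the culture interaction (1541 with DESeq2, against 922). The log2 ratio of the summed TPM in sorted cells was -1.28, and -2.20 without Mbp.

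Leaving out 1 library at a time gave 2474 to 4777 genes and 0 to 2 members in bulk tumors, with differences of -0.50 to 0.22 for Mbp, -0.58 to 0.35 for Mog, -0.36 to 0.55 for Mag, -0.62 to 0.25 for Mobp and -0.45 to 0.74 for Ermn. The GL261 culture comparison gave 307 to 2435 genes, 0 to 1 member higher and 0 to 2 lower, Cldn11 -0.48 to 0.0329 and Opalin -0.36 to 0.49. The CT2A culture comparison gave 0 to 191 genes and 0 to 2 members. For GL261 bulk against sorted, 0 to 1 member was higher and 3 to 5 were lower, with Opalin at -0.23 to 0.87. The interaction with sorting ran from -0.53 to 0.22 for Mbp, -0.72 to 0.26 for Mag, -0.65 to 0.28 for Mobp and -0.81 to 0.44 for Ermn. The culture interaction gave 261 to 1267 genes and 0 to 3 members, with Mog at -3.07 to 0.73, Cldn11 at -1.99 to 0.20 and Myrf at -0.20 to 1.45. The causes of these changes were not tested.

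Sorted CT2A libraries, with 8314122 to 9628084 reads, held 1 read of Mog each, so its fold difference is known only within the wide intervals given. No paired analysis was possible because the groups share no replicate numbers.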
